A study of Arabidopsis thaliana with 9 samples.

Results

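The comparison of the potent line with the control asked which transcripts of the Arabidopsis root oscillation zone differ when the auxin response repressor gene IAA18 is altered, and the genes outside the best known auxin response are described here. Members were all loci with at least 5 FPKM (fragments mapped per length of transcript and depth of the library) in potent or in the control, which gave 13155 of the 31124 loci in the deposited table. Total RNA came from oscillation zones that were cut from Arabidopsis thaliana roots at 7 dpi with a fine blade, after the DR5::Luciferase reporter of auxin response had been followed. The potent samples came from a line altered in IAA18, and the Col0 control samples were taken at the minimum of the oscillation. Each genotype had 3 independent samples. The phase at which the potent zones were cut is not given in the sources used here, so genotype and phase cannot be told apart. The nature of the potent allele is not given there either. The arf7 line, altered in the auxin response factor gene ARF7, is used only for values set beside potent.

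The oscillation zone lies behind the root tip, where auxin response rises and falls with a period of hours and each pulse can leave behind a site that is able to form a lateral root. Aux/IAA proteins such as IAA18 hold auxin response factors inactive until auxin triggers their breakdown. Cells of this zone are leaving the meristem, elongating and beginning to take on the properties of xylem, endodermis and root hairs, so genes of growth and genes of differentiation are both expressed there.

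The deposited table holds 1 value per locus and genotype, already combined from the 3 samples, so no spread between samples, no standard deviation and no test of these values could be computed. Changes are given as log2((potent + 1)/(control + 1)) in FPKM, and "past 1" means at least 1 on that scale in the named direction. The words rose and fell are kept for genes that appear for potent in the authors' deposited table of comparisons, with q-values between 0.00145 and 0.00945. All other genes are described by their values. The altered gene IAA18 (AT1G51950) had 21.8 FPKM in potent, against 10.6 FPKM in the control. ARF7 (named NPH4 in the annotation, AT5G20730) had 9.35 FPKM in potent, against 12.0 FPKM in the control. Neither gene is listed, and a transcript level does not report on an altered protein.

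Of the 13155 members, 2754 (20.9%) were higher past 1 in potent and 2375 (18.1%) were lower past 1. The authors' deposited table lists 603 members as higher (4.58%) and 743 as lower (5.65%), and each of them changed by at least 1.13 on the log2 scale. These 4 percentages are the background against which each gene group is read. The median change over all members was 0.00; FPKM are scaled to each library, so a shift of all genes together would not be seen in them. Both genotypes reached 5 FPKM at 9892 members, of which 13.4% were higher and 14.4% were lower past 1. The remaining 1896 members reached it in potent alone and 1367 in the control alone, and such loci had to differ in that direction. The members just inside the minimum were ATL4H (AT4G17905), with 5.00 FPKM in potent and 0.326 in the control, and AT4G29930, with 5.00 FPKM in potent and 0.382 in the control. Just outside it lay AT1G32760, with 3.51 FPKM in potent and 5.00 in the control, and GRP23 (AT1G10270), with 5.00 FPKM in potent and 2.39 in the control.

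**Figure D1:**
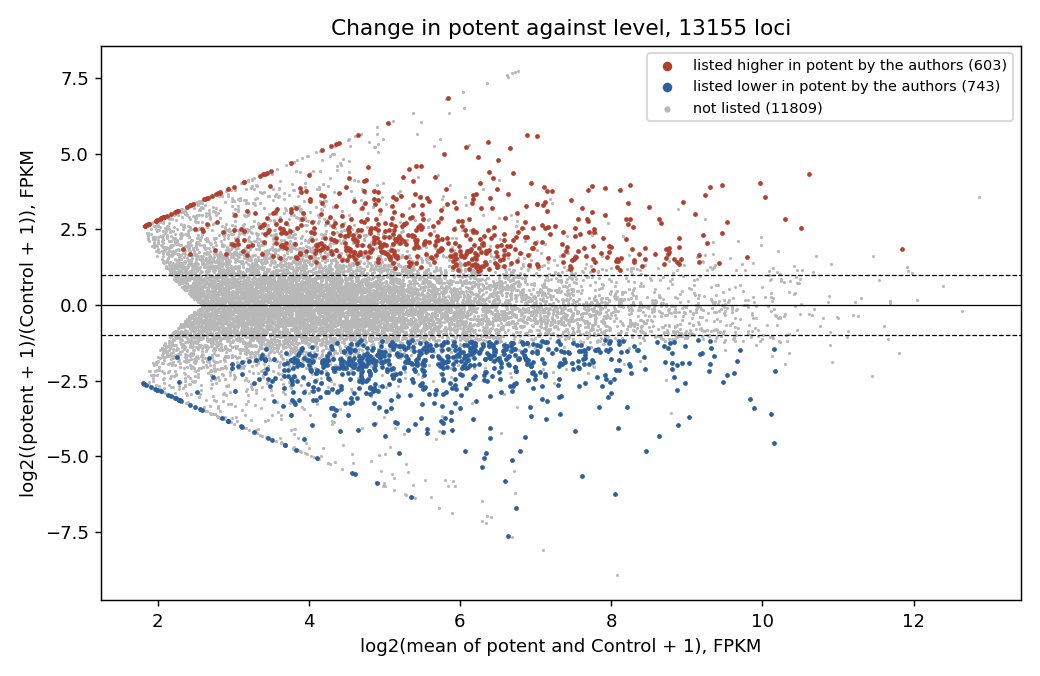
Change of each of the 13155 members (y axis, log2((potent + 1)/(control + 1))) against its mean level (x axis, log2(mean FPKM + 1)), each point 1 locus and dashed lines at 1 and -1. The 603 loci that the authors list as higher and the 743 that they list as lower lie outside the dashed lines at every level, and the straight edges at the left are loci at or near 0 in 1 genotype.

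The listed genes with the largest increases in absolute level had varied functions. The vacuolar aquaporin gene GAMMA-TIP (AT2G36830) rose to 5789 FPKM in potent, against 1595 FPKM in the control. The lipid transfer protein family gene AT3G18280 rose to 2989 FPKM in potent, against 147 FPKM in the control, the dirigent-like gene AT3G55230 to 2483 in potent, against 423 FPKM in the control, and the glutathione transferase gene GSTF9 (AT2G30860) to 2218 in potent, against 305 FPKM in the control. The arabinogalactan protein gene AGP3 (AT4G40090), the root hair genes RHS13 (AT4G02270) and RHS19 (AT5G67400) and the wall enzyme gene XTH14 (AT4G25820) rose to between 1185 and 1924 FPKM in potent, against 78.8 to 161 FPKM in the control. The largest decreases were led by GASA4 (AT5G15230), a gibberellin-regulated peptide gene, which fell to 90.8 FPKM in potent, against 2184 FPKM in the control. AGP9 (AT2G14890) fell to 166 FPKM in potent, against 2047 FPKM in the control, and AT1G04040, an acid phosphatase family gene, to 162 in potent, against 1738 FPKM in the control. AGP4 (AT5G10430), AGP7 (AT5G65390), FLA9 (AT1G03870) and RGP1 (AT3G02230), all tied to the cell wall or its sugar donors, were also among the 10 largest listed decreases. The most abundant transcript of potent, however, is not listed: the metallothionein gene MT1A (AT1G07600), whose protein binds copper and other metals, had 13728 FPKM in potent and 1143 in the control, the largest difference in level among all members. It was picked out after its values were seen.

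Of 68 gene lists, 62 had at least 5 members. The median change was above 0.5 in 33 of them, below -0.5 in 7 and between these values in 22. No list was tested against others, and the counts below describe these pooled values. Lists can hold members that reached 5 FPKM in 1 genotype alone and so had to differ in that direction, also where this is not repeated below.

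**Figure D2:**
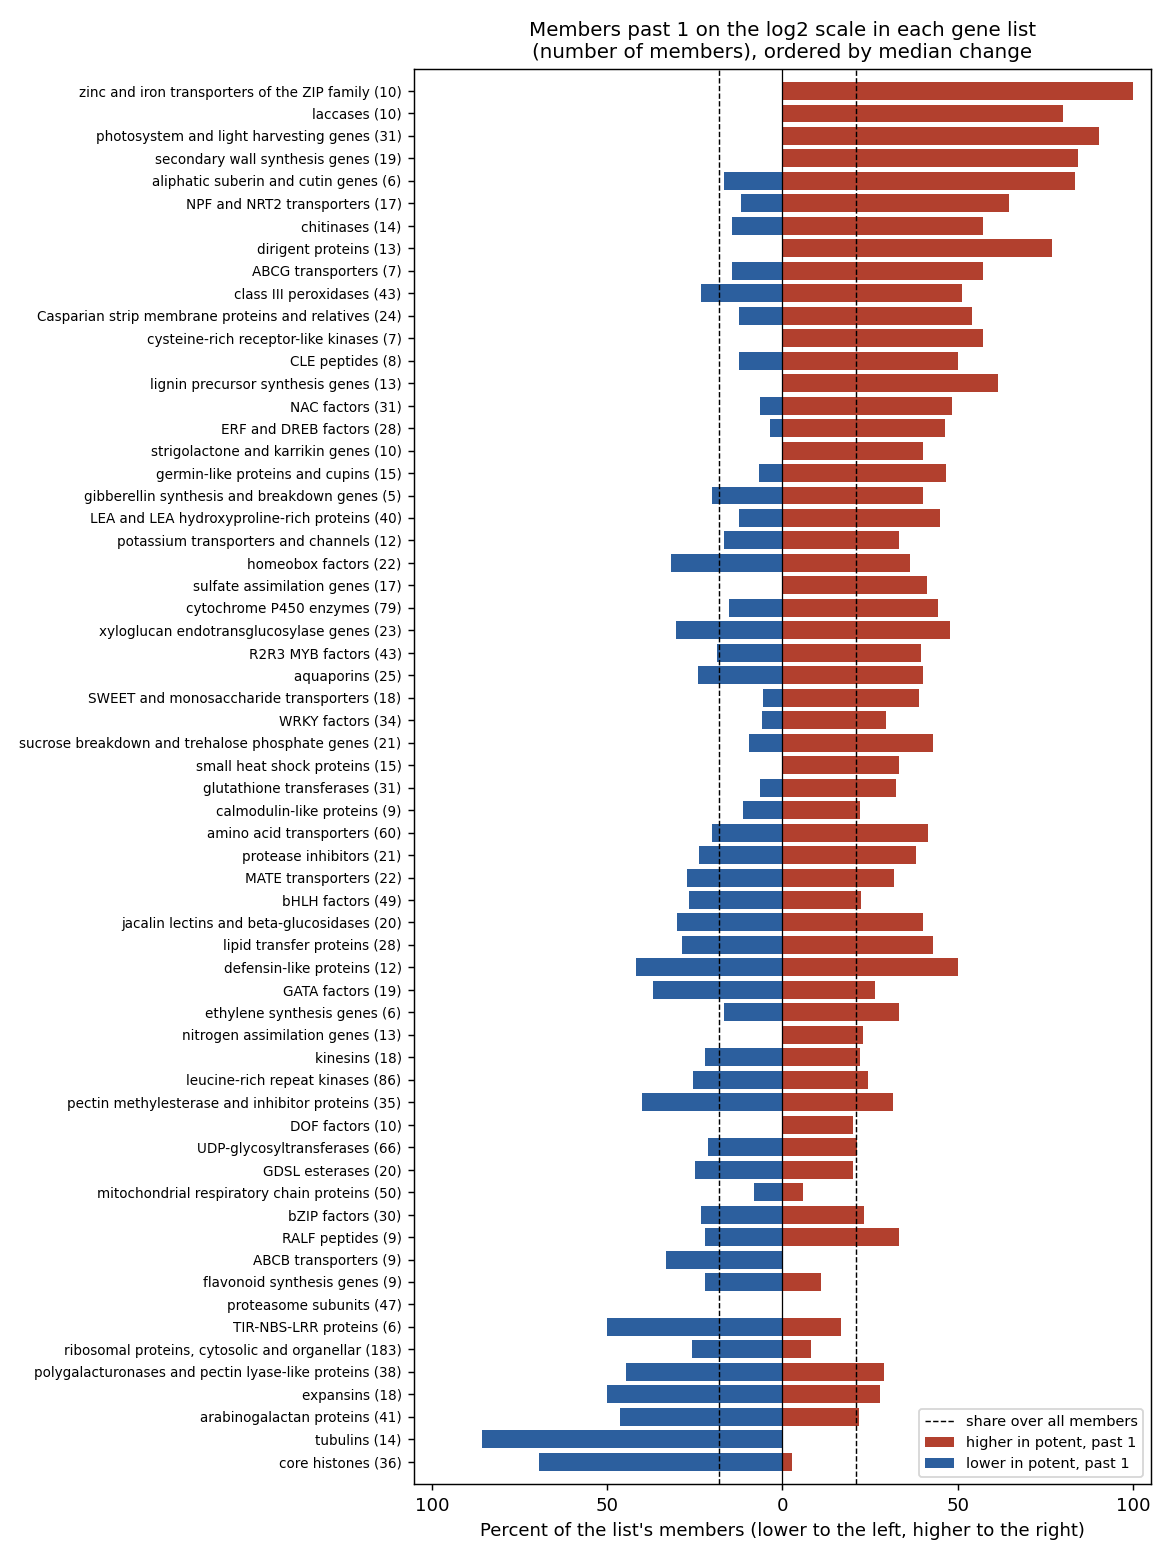
Percent of each list's members higher past 1 in potent (right) and lower past 1 (left) for the 62 gene lists with at least 5 members, with the number of members in brackets and lists ordered by median change. Dashed lines mark the shares over all 13155 members, 20.9% higher and 18.1% lower. The 10 ZIP transporters, most of them members through potent alone, lie entirely to the right, and 12 of the 14 tubulins lie to the left.

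Among genes for the uptake and assimilation of mineral nutrients, the metal, sulfate and nitrate lists held more higher members than the background, and the ZIP metal transporters had the highest median of the 62 lists. Of 12 potassium transporters and channels, 4 were higher and 2 lower past 1. The ZIP family carries zinc, iron and other divalent metals into cells, and all 10 of its members were higher past 1 (median 2.35), 5 of them listed. IRT2 (AT4G19680), an iron transporter of the root epidermis, rose to 85.2 FPKM in potent, against 2.55 FPKM in the control, and ZIP4 (AT1G10970) to 27.5 in potent, against 3.93 FPKM in the control. ZIP3 (AT2G32270), IRT3 (AT1G60960) and ZIP2 (AT5G59520) rose to 159, 112 and 108 FPKM in potent, against 30.1, 35.4 and 30.8 FPKM in the control. The members that are not listed had lower levels: ZIP9 (AT4G33020) had 13.6 FPKM in potent and 0.247 in the control, and ZIP1 (AT3G12750) had 5.10 FPKM in potent and 1.28 in the control. Most of the 10 members, IRT2, ZIP4, ZIP9 and ZIP1 among them, were under 5 FPKM in the control. They were members through potent alone and had to lie higher, whereas ZIP3, IRT3 and ZIP2 reached 5 FPKM in both genotypes.

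Of 17 sulfate uptake and assimilation genes, 7 were higher past 1, 6 of them listed, and none was lower past 1 (median 0.78). The steps that rose were spread along the pathway. The high-affinity sulfate transporter gene SULTR1;2 (AT1G78000) rose to 116 FPKM in potent, against 44.3 FPKM in the control, and APS4 (AT5G43780), which encodes an ATP sulfurylase, to 213 in potent, against 72.5 FPKM in the control. AKN2 (APK2, AT4G39940), a kinase that diverts activated sulfate to sulfation reactions such as those of glucosinolates, rose to 81.0 FPKM in potent, against 2.42 FPKM in the control. The related APK gene (AT2G14750) rose to 40.1 in potent, against 11.2 FPKM in the control. The serine acetyltransferase gene SERAT2;2 (AT3G13110), which supplies the carbon skeleton of cysteine, rose to 204 FPKM in potent, against 47.9 FPKM in the control, and its relative SERAT2;1 (AT1G55920) is also listed as higher. By contrast, the sulfite reductase gene SIR (AT5G04590) had 144 FPKM in potent and 129.5 in the control, and the cysteine synthase gene OASA1 (AT4G14880) had 496 FPKM in potent and 417 in the control, so these later steps lay close to the control. The APS reductase gene APR1, not listed, had 41.2 FPKM in potent and 7.38 in the control.

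Of 17 nitrate and peptide transporters of the NPF and NRT2 families, 11 were higher and 2 lower past 1 (median 1.54), with 6 listed as higher and 2 as lower. PTR1 (AT3G54140), a dipeptide transporter, rose to 19.9 FPKM in potent, against 2.97 FPKM in the control, and NRT1.9 (AT1G18880), a nitrate transporter of the phloem, to 71.3 in potent, against 11.9 FPKM in the control. The family was not uniform: AT3G16180 fell to 14.7 FPKM in potent, against 67.4 FPKM in the control, and AT1G52190, which is listed as lower, was at 0 in potent and had 9.78 FPKM in the control. GTR2 (AT5G62680), a glucosinolate importer, is not listed and had 101 FPKM in potent and 7.30 in the control. PTR1 was a member through potent alone and AT1G52190 through the control alone, and such members had to differ in that direction.

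Among 13 nitrogen assimilation genes 3 rose and none is listed as lower. The share higher past 1, 23.1%, was near the background, and 6 of the 13 lay below the control (median 0.13). GSR2 (AT1G66200), a cytosolic glutamine synthetase gene, rose to 989 FPKM in potent, against 199 FPKM in the control. The other cytosolic forms did not follow it: GSR 1 (AT5G37600) had 181 FPKM in potent and 321 in the control, and GLN1.3 (AT3G17820) had 167 FPKM in potent and 291 in the control. Of 60 amino acid transporters, 25 were higher and 12 lower past 1, with 11 listed as higher and 3 as lower (median 0.50). The importer gene AAP2 (AT5G09220) rose to 95.8 FPKM in potent, against 4.10 FPKM in the control, and UMAMIT27 (AT1G11450) to 42.8 in potent, against 1.39 FPKM in the control. UMAMIT34 (AT4G30420), of the same exporter family, fell to 6.26 in potent, against 38.3 FPKM in the control.

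**Figure D3:**
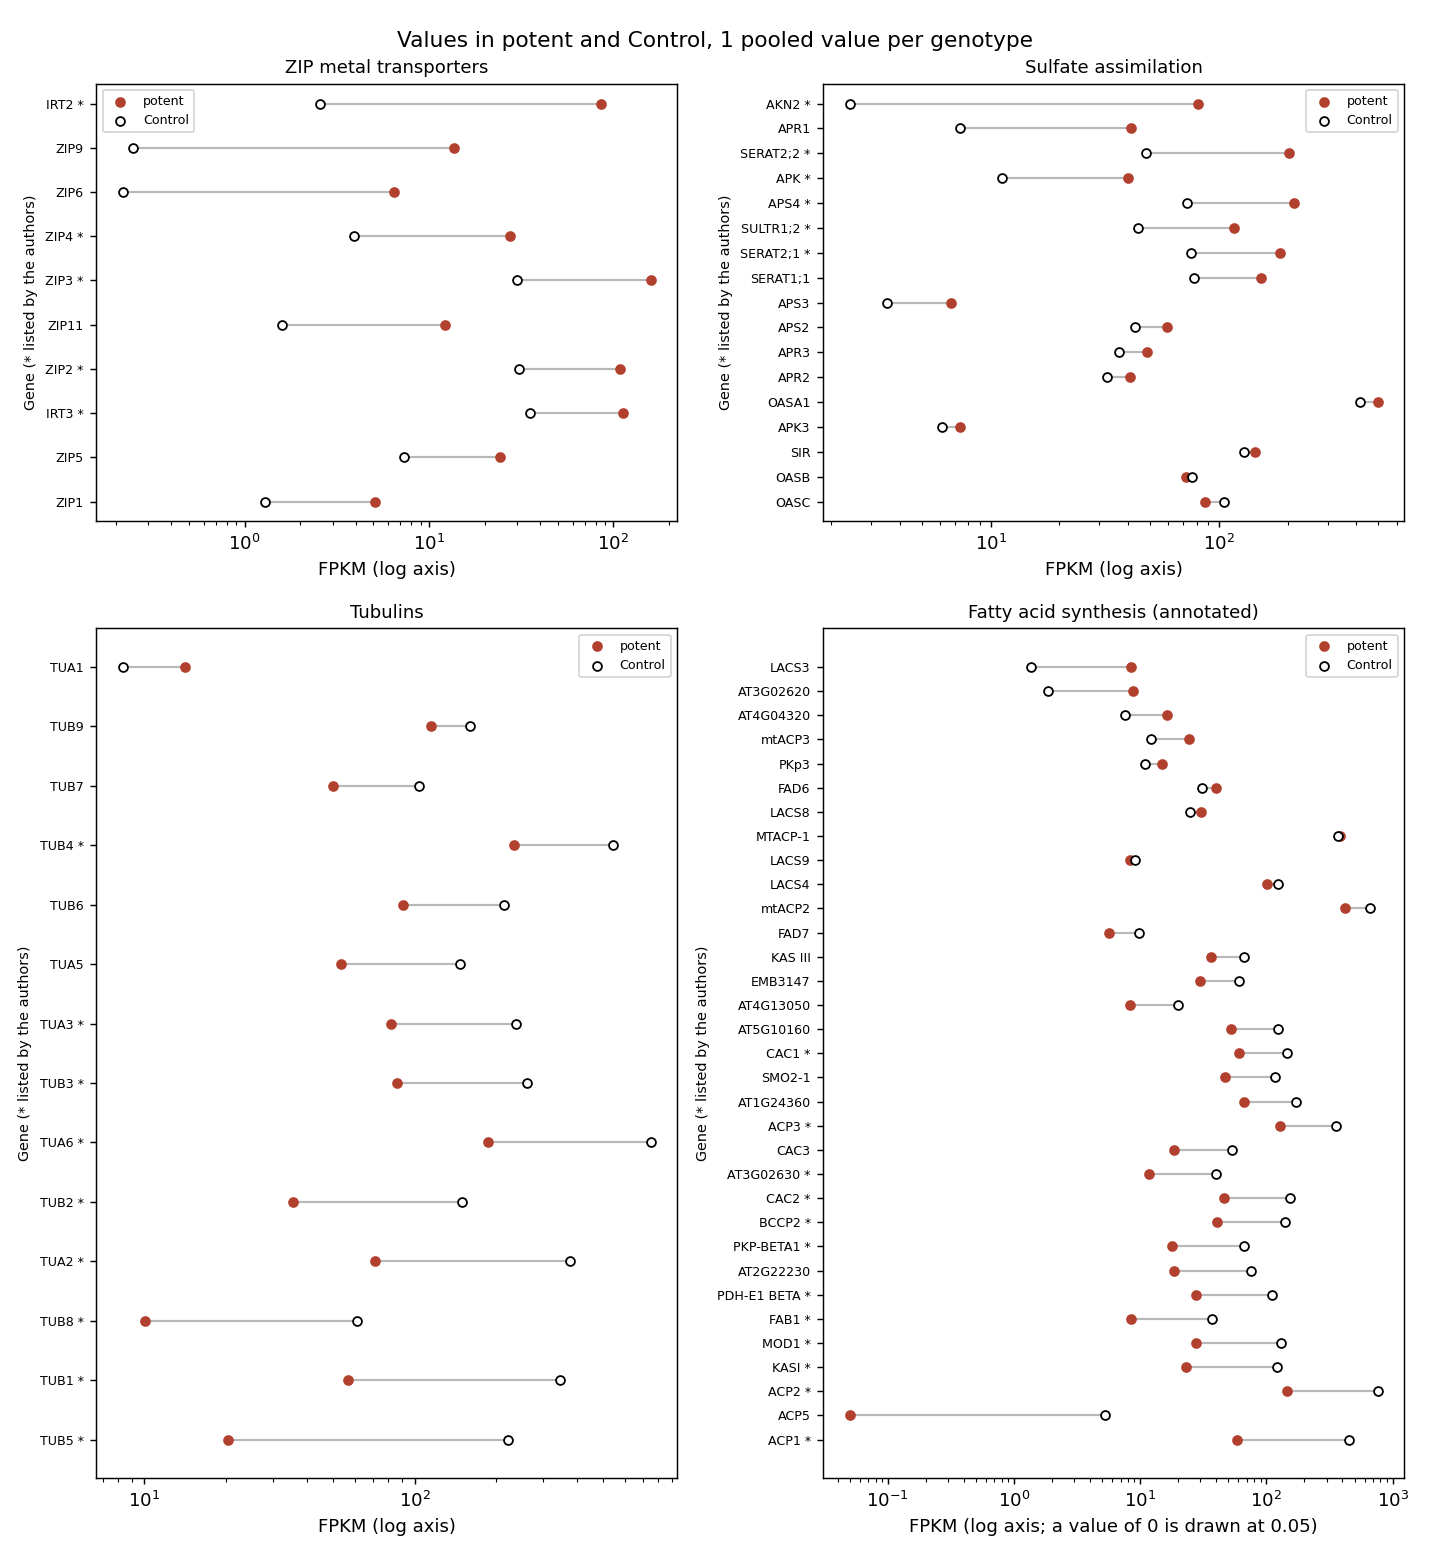
FPKM on a log axis in potent (filled) and the control (open) for every member of 4 groups, ordered within each panel by change, with a star at genes that the authors list. All 10 ZIP genes and 15 of the 17 sulfate genes lie higher in potent, whereas 13 of the 14 tubulin genes lie lower. Most genes annotated to fatty acid synthesis also lie lower in potent, and ACP5, at 0 in potent, is drawn at 0.05.

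Genes of lignin and of the secondary wall, the thickened wall that xylem vessels lay down, were higher in potent. Of 19 secondary wall synthesis genes, 16 were higher past 1 and none lower (median 1.83), and 2 are listed. IRX9 (AT2G37090), which builds the xylan backbone, rose to 28.7 FPKM in potent, against 7.05 FPKM in the control. IRX12 (LAC4, AT2G38080), a lignin laccase gene that also belongs to the laccase list, rose to 49.3 in potent, against 7.64 FPKM in the control. The cellulose synthase genes of the secondary wall, not listed, had 20.3 FPKM in potent and 5.01 in the control for IRX3 (AT5G17420) and 15.1 FPKM in potent and 3.22 in the control for IRX1 (AT4G18780). IRX1, like any gene of the list under 5 FPKM in the control, was a member through potent alone and had to lie higher.

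Laccases polymerise lignin, and 8 of 10 were higher past 1 and none lower (median 1.95), with 4 listed. LAC3 (AT2G30210), a laccase of the Casparian strip, rose to 672 FPKM in potent, against 199.6 FPKM in the control. LAC17 (AT5G60020) rose to 27.7 in potent, against 6.63 FPKM in the control, and LAC1 (AT1G18140) to 46.6 in potent, against 5.70 FPKM in the control. Of 13 dirigent proteins, which guide the coupling of lignin monomers, 10 were higher past 1 and none lower (median 1.40). AT3G55230, with 2483 FPKM in potent and 423 in the control, rose most in level, and ESB1 (AT2G28670), which shapes the Casparian strip and is not listed, had 1049 FPKM in potent and 249 in the control. In the pathway that makes lignin precursors, 8 of 13 genes were higher past 1 and none lower (median 1.09). PAL4 (AT3G10340), for the entry enzyme phenylalanine ammonia-lyase, rose to 65.7 FPKM in potent, against 7.47 FPKM in the control, and the methyltransferase gene OMT1 (AT5G54160) to 322 in potent, against 110.4 FPKM in the control.

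Markers of several root cell types were also higher in potent, and markers of others were not. Of 7 xylem markers 6 were higher past 1, and the summed level of the list was 1479 FPKM in potent and 949 in the control. CESA4, the only one of the 7 not past 1, made up most of both sums. Of 7 endodermis markers 5 were higher past 1, with sums of 7592 FPKM in potent and 2756 in the control. Of 8 root hair markers 7 were higher past 1, with sums of 2685 FPKM in potent and 506 in the control. All 4 pericycle markers were higher past 1, with sums of 133.6 FPKM in potent and 11.2 in the control, and 2 of 3 phloem markers were, with sums of 40.6 FPKM in potent and 14.7 in the control. Of 3 markers of the hairless epidermis none was higher and 1 was lower past 1, with sums of 109 FPKM in potent and 102 in the control. The cortex marker AT1G09750 had 4.60 FPKM in potent and 98.9 in the control. Of 7 meristem markers 2 were members, both higher past 1, with sums of 20.8 FPKM in potent and 2.97 in the control, and PLT1, PLT2, RGF1 and RGF2 were at 0 in both genotypes. Of 5 lateral root cap markers 2 were members, both higher past 1, with sums of 74.9 FPKM in potent and 3.49 in the control, and SMB and NAC015 were at 0 in both genotypes. The meristem and root cap members, and some of the pericycle, xylem and phloem members, were under 5 FPKM in the control. They were members through potent alone and had to lie higher. The part that these marker changes have in the other groups was not tested, and in bulk tissue fewer cells of a type and less RNA per cell cannot be told apart.

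Photosynthesis genes were higher in potent. Of 31 nuclear genes for photosystem and light harvesting proteins, 28 were higher past 1, none was lower and all 31 lay above the control (median 1.85). The authors' deposited table lists 4 of them. PSBR (AT1G79040), a small subunit of photosystem II, rose to 349.7 FPKM in potent, against 65.3 FPKM in the control. LHCA3 (AT1G61520), an antenna protein of photosystem I, rose to 63.7 in potent, against 9.57 FPKM in the control, and PSAF (AT1G31330) to 79.9 in potent, against 15.1 FPKM in the control. The smallest difference in this list was that of PSBO2 (AT3G50820), with 5.07 FPKM in potent and 4.82 in the control. PSBO2, like any gene of the list under 5 FPKM in the control, was a member through potent alone and had to lie higher. The 10 green shoot markers, of which 4 were members, summed to 118 FPKM in potent and 22.2 in the control; the Rubisco gene RBCS1A (AT1G67090) had 5.66 FPKM in potent and 0.411 in the control. RBCS1A was likewise a member through potent alone. The part of green cells in the higher levels of these genes was not tested.

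Several groups annotated to defence held more higher members than the background, and others did not. The annotation terms in this and the following paragraphs were picked out after their values had been seen. Of 39 members annotated to the response to chitin, a fungal wall polymer that plants sense, 16 were higher and 1 was lower past 1 (median 0.92). The ubiquitin ligase gene CMPG2 (AT5G64660) rose to 43.0 FPKM in potent, against 10.5 FPKM in the control, and the zinc finger gene AT3G52800 to 319 in potent, against 119.8 FPKM in the control. Of 76 members annotated to the defence response, 32 were higher and 7 lower past 1 (median 0.92). Among them RBOHD (AT5G47910), an oxidase that makes reactive oxygen at the plasma membrane, rose to 6.88 in potent, against 1.204 FPKM in the control. Of 70 members annotated to the defence response to bacterium, by contrast, 14 were higher and 6 lower past 1 (median 0.18), and of 6 TIR-NBS-LRR immune receptors 1 was higher and 3 were lower past 1. Of 35 members annotated to the response to wounding, 14 were higher and 2 lower past 1 (median 0.83). The phytosulfokine peptide gene PSK4 (AT3G49780) rose to 148 FPKM in potent, against 36.9 FPKM in the control, and the protease inhibitor gene AT2G38870 to 360.4 in potent, against 51.4 FPKM in the control.

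Enzymes of defence and detoxification were similar in direction but not uniform. Of 14 chitinases, 8 were higher and 2 lower past 1 (median 1.49), with 3 listed as higher and 1 as lower. HCHIB (AT3G12500), a basic chitinase gene, rose to 109.9 FPKM in potent, against 11.02 FPKM in the control. AT2G43610, of the same family, fell to 1.01 FPKM in potent, against 212 FPKM in the control, while AT2G43590, close to it on chromosome 2, rose to 416 in potent, against 140.1 FPKM in the control. Of 31 glutathione transferases, which conjugate glutathione to toxic compounds, 10 were higher and 2 lower past 1 (median 0.54), with 6 listed as higher and none as lower. GSTU20 (AT1G78370) rose to 85.8 FPKM in potent, against 6.503 FPKM in the control. GSTF8 (AT2G47730), the most abundant member in both genotypes, lay near the control, with 3444 FPKM in potent and 3151 in the control.

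Glucosinolates are the sulfur-rich defence compounds of the cabbage family. No list of their genes was counted, and the named genes that act on them differed in direction. The indole glucosinolate methyltransferase gene IGMT5 (AT1G76790) rose to 197 FPKM in potent, against 8.63 FPKM in the control. MYB28 (AT5G61420), which switches on methionine-derived glucosinolate synthesis, rose to 23.5 in potent, against 1.71 FPKM in the control. UGT74B1 (AT1G24100), a glucosyltransferase of the core pathway, rose to 111 in potent, against 17.4 FPKM in the control. CYP83B1 (AT4G31500), which commits indole oximes to this pathway and was picked out after its values were seen, rose to 154 in potent, against 12.3 FPKM in the control. CYP81F3 (AT4G37400), of a P450 subfamily that modifies indole glucosinolates, fell to 3.50 FPKM in potent, against 41.2 FPKM in the control.

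Among transcription factor families, NAC and ERF genes were mainly higher, and homeobox and GATA genes were split. Of 31 NAC factors, 15 were higher and 2 lower past 1 (median 0.95). NAC057 (AT3G17730) rose to 9.28 FPKM in potent, against 0.792 FPKM in the control, and NAC3 (AT3G29035) to 40.5 in potent, against 12.7 FPKM in the control. Of 28 ERF and DREB factors, 13 were higher and 1 was lower past 1 (median 0.95), with 4 listed as higher. The repressor gene ERF4 (AT3G15210) rose to 131 FPKM in potent, against 26.3 FPKM in the control, and ERF12 (AT1G28360) to 13.4 in potent, against 0.826 FPKM in the control. Of 34 WRKY factors, a family of defence regulators, 10 were higher and 2 lower past 1 (median 0.62), and WRKY47 (AT4G01720) is the listed member.

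The 22 homeobox factors were split, with 8 higher and 7 lower past 1, also within 1 subfamily. AtHB23 (AT1G26960), ATHB13 (AT1G69780) and HB20 (AT3G01220), of class I of the leucine zipper homeobox genes, fell to 4.22, 5.997 and 13.7 FPKM in potent, against 88.0, 99.6 and 113 FPKM in the control. HB16 (AT4G40060) and HB-1 (AT3G01470), also of class I, rose to 139 and 369 in potent, against 29.5 and 123 FPKM in the control. WOX13 (AT4G35550) rose to 59.6 in potent, against 11.4 FPKM in the control. Of 19 GATA factors, 7 were lower and 5 higher past 1 (median 0.23), and the 4 listed members all fell. For the 12 with at least 20 FPKM in either genotype the median was -1.77. GATA9 (AT4G32890) fell to 3.58 FPKM in potent, against 32.7 FPKM in the control, and BME3 (AT3G54810) to 15.7 in potent, against 91.6 FPKM in the control. GATA2 (AT2G45050), listed as lower, was at 0 in potent and had 79.7 FPKM in the control. BZIP61 (AT3G58120), a leucine zipper factor outside these families, fell to 3.61 in potent, against 129 FPKM in the control.

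Small signalling peptides differed gene by gene. Of 8 CLE peptide genes, whose products signal through receptor kinases, 4 were higher and 1 was lower past 1. CLE5 (AT2G31083) rose to 536 FPKM in potent, against 89.1 FPKM in the control, and CLE2 (AT4G18510) to 41.1 in potent, against 1.85 FPKM in the control. CLE6 (AT2G31085), a close relative next to CLE5 on chromosome 2, had 48.8 FPKM in potent and 89.9 in the control. The receptor kinase gene CLV1 (AT1G75820) rose to 13.9 in potent, against 1.73 FPKM in the control, and XIP1 (AT5G49660), a receptor kinase of the vasculature, to 8.60 in potent, against 0.698 FPKM in the control. Over all 86 leucine-rich repeat kinases, 21 were higher and 22 lower past 1 (24.4% and 25.6%, median 0.06), with 8 listed as higher and 10 as lower. RALFL34 (AT5G67070), a peptide gene of the RALF family, fell to 5.07 FPKM in potent, against 23.1 FPKM in the control.

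In the other direction, genes of cell growth and of the growing wall were lower. Tubulins form the microtubules that guide cellulose deposition and cell division, and 12 of 14 were lower past 1, 9 of them listed (median -1.56). TUB5 (AT1G20010) fell to 20.4 FPKM in potent, against 221 FPKM in the control, and TUB1 (AT1G75780) to 56.6 in potent, against 345 FPKM in the control. TUA6 (AT4G14960), the most abundant of the alpha-tubulin genes in the control, fell to 187 in potent, against 748 FPKM in the control. TUA1 (AT1G64740) alone lay above the control, with 14.1 FPKM in potent and 8.30 in the control. Of 36 core histones, 25 were lower and 1 was higher past 1 (median -1.60), and 13 fell. HTB2 (AT5G22880) fell to 5.83 FPKM in potent, against 102 FPKM in the control, whereas the replacement histone gene AT4G40040 had 887 FPKM in potent and 882 in the control. Tubulins and histones are families of near-identical copies, between which reads may have been split. Of 183 ribosomal proteins, cytosolic and organellar, 47 were lower and 15 higher past 1 (median -0.72), with 4 listed as lower and 1 as higher. Of 86 members annotated to the cytosolic large subunit, 20 were lower and 0 higher past 1. Of 70 annotated to the small one, 17 were lower and 3 higher.

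Genes of fatty acid synthesis in plastids were lower, from the supply of acetyl-CoA to the building of the chain. Of 33 members annotated to fatty acid biosynthesis, 20 were lower and 3 higher past 1 (median -1.26), with 12 listed as lower and none as higher. The acetyl-CoA carboxylase that starts the pathway was represented by CAC2 (AT5G35360) and BCCP2 (AT5G15530), which fell to 46.5 and 40.9 FPKM in potent, against 153 and 140.0 FPKM in the control. The acyl carrier protein genes ACP1 (AT3G05020), ACP2 (AT1G54580) and ACP3 (AT1G54630) fell to 58.8, 144 and 129 FPKM in potent, against 448, 761 and 358 FPKM in the control. The chain-building enzymes KASI (AT5G46290), FAB1 (AT1G74960) and MOD1 (AT2G05990) fell to 23.2, 8.48 and 27.7 in potent, against 121.4, 36.8 and 132 FPKM in the control. PDH-E1 BETA (AT1G30120), which supplies acetyl-CoA in plastids, fell to 27.5 in potent, against 111 FPKM in the control. None of the 3 mitochondrial acyl carrier proteins is listed: mtACP2 (AT1G65290) had 421 FPKM in potent and 663 in the control, MTACP-1 (AT2G44620) had 384 FPKM in potent and 369 in the control, and mtACP3 (AT5G47630) had 24.2 FPKM in potent and 12.1 in the control. The sterol synthesis genes CYP51G1 (AT1G11680), SMT2 (AT1G20330) and CAS1 (AT2G07050) fell to 54.8, 25.8 and 8.69 FPKM in potent, against 173, 109.7 and 45.5 FPKM in the control. They were picked out because they fell, and the pathway as a whole was not counted.

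The secretory pathway, which carries proteins and wall sugars to the cell surface, was lower as well. None of 63 members annotated to the Golgi apparatus was higher past 1, 36 were lower and 22 fell (median -1.20). The wall synthesis genes among them included XXT5 (AT1G74380), a xyloglucan xylosyltransferase, at 32.6 FPKM in potent, against 103 in the control, and QUA1 (AT3G25140), a pectin glycosyltransferase, at 24.7 in potent, against 70.8 FPKM in the control. Both are listed as lower, as is the primary wall cellulose synthase CESA6 (AT5G64740), at 48.9 in potent, against 119.5 FPKM in the control. Of 212 members annotated to the endoplasmic reticulum, 80 were lower and 18 higher past 1 (median -0.66), with 46 listed as lower and 6 as higher. The disulfide isomerase gene PDIL1-3 (AT3G54960) fell to 18.6 FPKM in potent, against 348 FPKM in the control, and STT3A (AT5G19690), the catalytic subunit of protein N-glycosylation, to 14.3 in potent, against 102 FPKM in the control. Of 110 members annotated to intracellular protein transport, 43 were lower and 6 higher past 1 (median -0.83), with 27 listed as lower and none as higher. These include the clathrin heavy chain genes AT3G11130 and AT3G08530, which fell to 25.2 and 17.7 in potent, against 70.4 and 49.9 FPKM in the control.

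Proteins and enzymes of the expanding wall were lower in many cases. Of 41 arabinogalactan proteins, 19 were lower and 9 higher past 1 (median -0.94), with 12 listed as lower and 2 as higher. AGP31 (AT1G28290) fell to 36.6 FPKM in potent, against 752 FPKM in the control, whereas FLA15 (AT3G52370) rose to 111 in potent, against 33.3 FPKM in the control. The summed level of the list was 16937 FPKM in potent and 29457 in the control. Of 38 polygalacturonases and pectin lyase-like proteins, 17 were lower and 11 higher past 1 (median -0.85), and the 9 listed members all fell. AT1G05660 fell to 3.67 FPKM in potent, against 154 FPKM in the control, and AT5G48900 to 2.07 in potent, against 60.1 FPKM in the control. Of 18 expansins, 9 were lower and 5 higher past 1, with EXPB1 (AT2G20750) at 4.76 FPKM in potent and 200.2 in the control, and EXPA9 (AT5G02260) at 35.4 FPKM in potent and 201 in the control. Both fell, while the root hair expansins EXPA7 (AT1G12560) and EXPA18 (AT1G62980) rose.

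**Figure D4:**
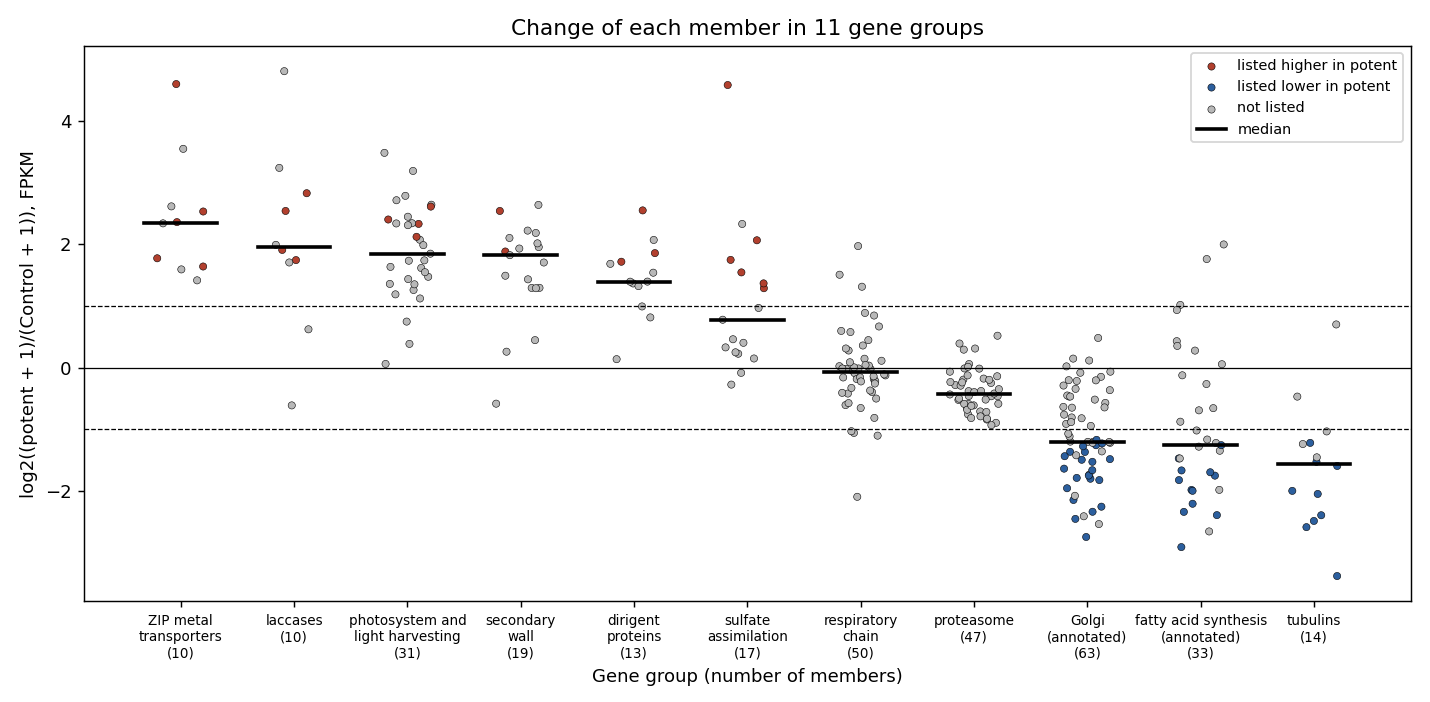
Change of each member (y axis, log2((potent + 1)/(control + 1))) in 11 gene groups, each point 1 locus, filled by whether the authors list it as higher, as lower or not at all, with a bar at the group's median and dashed lines at 1 and -1. The medians run from 2.35 for the ZIP transporters to -1.56 for the tubulins, and the 47 proteasome subunits lie within 1 of no change.

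Large wall and oxidation families held strong changes in both directions. Of 43 class III peroxidases, which cross-link wall polymers or make reactive oxygen, 22 were higher and 10 lower past 1, with 13 listed as higher and 6 as lower. AT5G64120 (PRX71) and AT1G71695 rose to 159 and 569.7 FPKM in potent, against 6.65 and 35.2 FPKM in the control. AT2G18980 fell to 5.86 in potent, against 519.9 FPKM in the control. Of 23 xyloglucan endotransglucosylase genes 7 rose and 4 fell, with XTH31 (AT3G44990) at 145 FPKM in potent, against 3.91 in the control, and XTH8 (AT1G11545) at 6.63 in potent, against 214 FPKM in the control. Of 79 cytochrome P450 enzymes 13 rose and 4 fell: CYP71A27 (AT4G20240) rose to 50.1 in potent, against 1.94 FPKM in the control, and BR6OX2 (AT3G30180), which makes the growth hormone brassinolide, fell to 7.33 in potent, against 38.5 FPKM in the control. Of 25 aquaporins 4 rose and 4 fell. TIP2;2 (AT4G17340), of the vacuole, rose to 981 FPKM in potent, against 122 FPKM in the control, and NLM1 (AT4G19030), of the NIP subfamily, fell to 29.6 in potent, against 512 FPKM in the control.

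The proteasome and the mitochondrial respiratory chain lay nearer to the control than the ribosomal proteins. None of 47 proteasome subunits passed 1 in either direction and none is listed, but 41 of them lay below the control (median -0.42), with summed levels of 3919 FPKM in potent and 5097 in the control. Of 50 mitochondrial respiratory chain proteins, 3 were higher and 4 lower past 1 (median -0.07), and none is listed. The summed levels of the respiratory chain list were 14779 FPKM in potent and 14926 in the control.

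Transcript length moved with the direction of change. The members were divided into 5 equal classes of annotated transcript length. Among the shortest (up to 1013 bases) 28.5% were higher past 1, in the next 3 classes 25.2%, 20.9% and 17.8%, and among the longest (over 2310 bases) 12.5%. The share that was lower past 1 ran from 15.5% to 19.7% without such an order. From the shortest to the longest class, however, 106, 116, 139, 197 and 185 members are listed as lower. Those listed as higher number 118, 142, 132, 113 and 97. The median length was 2295 bases for the Golgi group, 1690 for fatty acid synthesis, 1873 for tubulins and 1200 for the photosystem genes, against 1607 over all members. Core histones, with a median of 844.5 bases, were short and lower. The part that length has in the group differences was not tested. Below a mean of 5 FPKM, 40.5% of 1189 members were higher and 24.7% lower past 1. Such members reached 5 FPKM in 1 genotype alone and had to differ. The minimum therefore raised these shares, and they do not show a relation between level and change. Between 16.2% and 22.7% were higher in all bins above that.

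**Figure D5:**
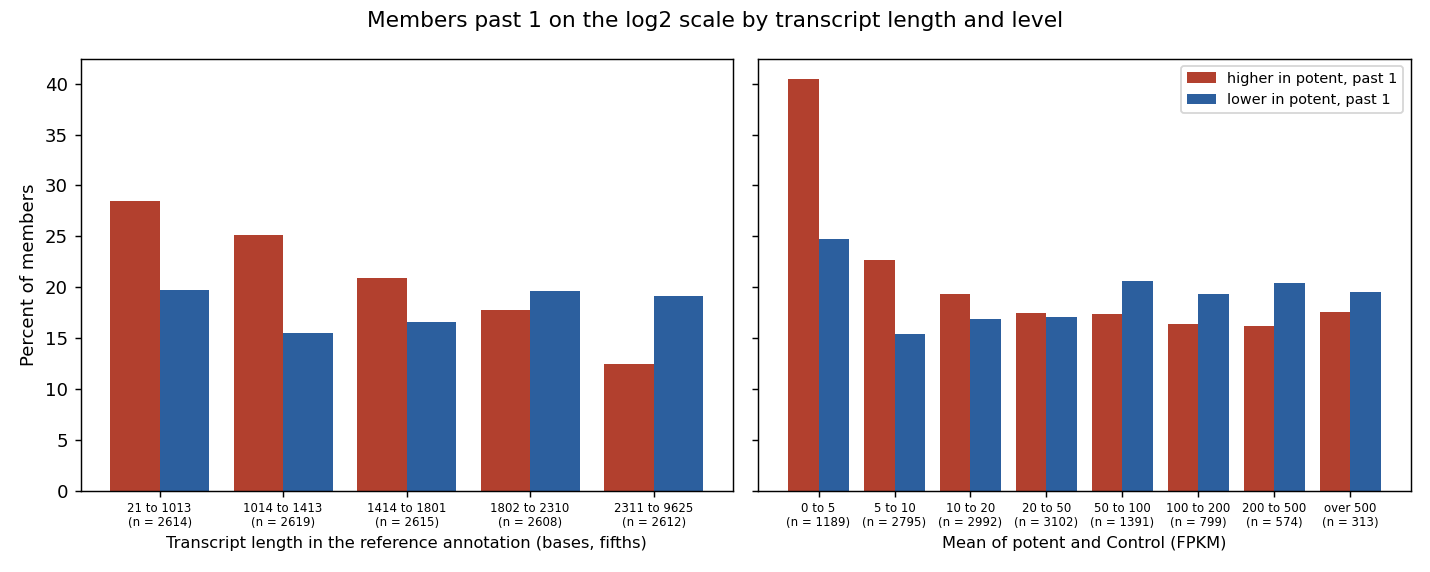
Percent of members higher (left bar of each pair) and lower (right bar) past 1 in potent, by 5 equal classes of annotated transcript length (left panel, bases) and by mean of potent and control (right panel, FPKM), with the number of members under each pair. The share of higher members runs from 28.5% for the shortest to 12.5% for the longest transcripts. Members in the lowest bin of the right panel reached 5 FPKM in 1 genotype alone and had to differ.

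Some genes past 1 lie side by side on a chromosome. Runs of at least 3 neighbouring protein-coding genes that were all members past 1 in the same direction numbered 67, with 45 higher and 22 lower, and 8 of them held 4 genes or more. Of the 12493 protein-coding members, 20.4% were higher and 17.7% lower past 1, and the number of runs expected without any grouping was not computed. Some genes in the runs reached 5 FPKM in 1 genotype alone and had to differ in that direction. The longest, with 6 genes on chromosome 1 from PGM (AT1G78050) to AUF1 (AT1G78100), included 3 listed genes. These were AT1G78070, at 24.7 FPKM in potent, against 3.11 in the control, RAP2.4 (AT1G78080), an ERF family factor, at 91.0 in potent, against 25.1 FPKM in the control, and the F-box gene AUF1, at 100.2 in potent, against 25.2 FPKM in the control. A run of 5 genes on chromosome 4 ran from HB16 to AGP3. A run of 4 on chromosome 5 is the gene cluster that makes the triterpene thalianol. In it AT5G47980 and CYP705A5 (AT5G47990) rose to 16.5 and 38.0 FPKM in potent, against 1.11 and 5.81 FPKM in the control, and the synthase THAS1 (AT5G48010), not listed, had 13.9 FPKM in potent and 4.37 in the control. Of the lower runs, that of 4 on chromosome 4 held AT4G30410 (IBL1), a transcription factor gene, which fell to 8.38 in potent, against 107 FPKM in the control.

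Promoters, from 250 bases before to 50 bases after the annotated start, were searched on both strands. The auxin response element TGTCTC was present in 13.3% of 2544 promoters of members higher past 1, in 13.4% of 2214 lower past 1, in 13.2% of 7734 within 1, and in 14.2% of all 27443 protein-coding genes. The variant TGTCGG was present in 6.17%, 5.96% and 5.77% of the same member groups, in that order, and in 5.12% of all genes. The higher and the lower members therefore held these elements at nearly the same share. The G-box CACGTG was present in 8.02%, 10.7% and 8.53% of the member groups and in 7.68% of all genes. It was present in 5.85% of 598 promoters of listed higher genes and 12.0% of 740 of listed lower genes. The element TGGGCC, found near many genes of growing cells, was present in 11.8%, 17.7% and 22.1%, and in 15.5% of all genes. Listed higher genes held it in 6.52% and listed lower genes in 15.5%, the latter at the share of all genes. AAACCCTA, known from ribosomal protein promoters, was present in 4.09%, 5.47% and 5.77%, with 2.01% of listed higher and 4.46% of listed lower genes. All these shares lay below the 6.22% of all genes. TTGACC, the core of the WRKY site, was present in 14.2%, 13.2% and 14.8%, and in 14.2% of all genes. The evening element AAAATATCT was present in 3.54%, 3.12% and 2.78%, and in 2.82% of all genes. A match of letters is a description and was not tested as a site. Shown are the 250 bases before the start (RefSeq annotation, TAIR10.1, each in the direction of its gene, TGTCTC in capitals) for the 2 genes of highest rank that rose and the 2 that fell and hold TGTCTC, because the same letters lie before genes that moved in opposite directions. They are WES1 (GH3.5, AT4G27260, chr4:13653329-13653578, plus strand), CYP71A27 (chr4:10934238-10934487, minus strand), AT5G48900 (chr5:19824828-19825077, plus strand) and AT4G18670 (chr4:10278795-10279044, minus strand).
WES1: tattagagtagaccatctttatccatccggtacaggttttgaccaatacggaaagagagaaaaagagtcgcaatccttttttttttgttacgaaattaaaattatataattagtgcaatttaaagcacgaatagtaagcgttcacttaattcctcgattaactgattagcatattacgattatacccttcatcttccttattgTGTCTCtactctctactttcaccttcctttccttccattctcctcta
CYP71A27: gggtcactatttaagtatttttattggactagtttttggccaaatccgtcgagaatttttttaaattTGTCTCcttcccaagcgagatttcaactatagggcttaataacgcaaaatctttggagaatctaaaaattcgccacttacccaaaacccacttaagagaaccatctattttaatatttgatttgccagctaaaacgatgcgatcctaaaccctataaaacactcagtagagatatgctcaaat
AT5G48900: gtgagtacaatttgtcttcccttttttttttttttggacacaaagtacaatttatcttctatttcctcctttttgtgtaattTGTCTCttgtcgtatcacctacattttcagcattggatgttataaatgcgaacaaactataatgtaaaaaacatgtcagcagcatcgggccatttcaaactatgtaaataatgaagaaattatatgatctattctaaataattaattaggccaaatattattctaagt
AT4G18670: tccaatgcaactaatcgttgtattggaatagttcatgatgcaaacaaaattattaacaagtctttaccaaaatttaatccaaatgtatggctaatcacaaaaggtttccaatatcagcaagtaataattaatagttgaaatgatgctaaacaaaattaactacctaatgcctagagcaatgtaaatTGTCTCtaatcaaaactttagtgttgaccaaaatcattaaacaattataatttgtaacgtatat
The auxin conjugation gene WES1 rose to 71.3 FPKM in potent, against 2.86 FPKM in the control. The leucine-rich repeat gene AT4G18670 fell to 2.54 FPKM in potent, against 53.6 FPKM in the control.

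Values in arf7, measured against the same control, are given for 4 of these genes, picked out after their values were seen. AKN2 had 81.0 FPKM in potent, 24.5 in arf7 and 2.42 in the control, and IRT2 had 85.2 FPKM in potent, 9.85 in arf7 and 2.55 in the control. ACP1 had 58.8 FPKM in potent, 84.3 in arf7 and 448 in the control, and TUB5 had 20.4 FPKM in potent, 40.5 in arf7 and 221 in the control.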

How the data were processed

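Oscillation zones of Arabidopsis roots were sequenced as full-length cDNA (Picelli protocol, per the labels' protocols) from potent, arf7 and Col0 control, with 3 samples each. The authors deposited 1 value per locus and genotype. Its unit is not in the header, and it was taken as FPKM, since Cufflinks and Cuffdiff appear, with Bowtie, Bowtie2, TopHat, TopHat2 and TAIR10, in the submitters' processing notes. Versions, settings and sample depth were not given in the sources used here. A second table, per the file headers, holds the authors' comparisons with their log2 fold changes, p-values and q-values. From it the listed loci, the sign of their log2 fold changes and the q-values were used. Its FPKM values are the authors' pooled values.

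From these, the change log2((potent + 1)/(control + 1)) was computed with a pseudocount of 1 for loci with at least 5 FPKM in either column, with a threshold of 1. The pseudocount understates changes of low genes. Names, transcript lengths, terms and promoters came from the TAIR10.1 annotation by locus identifier (30847 of 31124 matched). The deposited tables give no coordinates, so those printed are of TAIR10.1. The members and the gene lists were chosen with earlier results of these data known, and 143 loci whose annotated product did not belong to their list were left out after the files were seen. The genes named were the altered genes, the 15 highest and 15 lowest listed members by change with neither value at 0, the 10 largest listed increases and decreases in FPKM, up to 2 per direction and list (or the 2 of highest mean), those nearest the minimum and those in the 5 longest runs of neighbours. Others were chosen after their values were seen. Near-identical copies (histones, tubulins, light harvesting proteins) and overlapping genes are uncertain, because the protocol does not mark strand and 75 entries join several loci. Calculations used Python 3.11.15, pandas 2.3.3, numpy 2.4.6 and matplotlib 3.10.9, and were tested on simulated data.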

Additional observations from a re-analysis of the deposited data

How the results depend on the processing

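No paired analysis was possible because the deposited values are pooled, 1 per genotype, and for the same reason no replicate could be left out and no test repeated. The counts of members higher and lower past 1 (2754 and 2375) were 1326 and 1429 where both columns had to reach 5 FPKM and 1460 and 1484 with at least 20 FPKM in either column; they were 1093 and 772 with a threshold of 2. With both columns at 5 FPKM or more, higher members no longer outnumbered lower ones, since members present in potent alone drop out by construction. Lists whose median was at least 0.5 in size reversed in these cases: TIR-NBS-LRR proteins (-0.71) had 0.000926 with no minimum, sucrose and trehalose genes (0.57) had -0.0189 with both columns at 5 and -0.0551 with 20 in either, and potassium transporters (0.84) had -0.25 with both columns at 5. The other sign changes were in lists with medians under 0.5 in size. Among these, nitrogen assimilation (0.13) had -0.53 with both columns at 5, and GATA factors (0.23) had -1.77 with at least 20 in either. Of 62 lists, the median kept its sign in 53 of the 61 left with at least 20 FPKM in either column, in 54 with both columns at 5 FPKM, in 59 with no minimum, in 61 with a pseudocount of 5 and in 62 with both columns scaled to the same sum or with protein-coding loci alone. No named gene with a change of at least 1 in size changed sign, but this was largely fixed in advance. A pseudocount, a minimum or a threshold cannot change the sign of a single gene, and only rescaling or centring could. The change moved by more than 0.5 for 22 of 207 genes with a pseudocount of 0.1 and for 80 with a pseudocount of 5. Depth is unknown, so counting error could not be given for any value.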

Other observations

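Some of the largest differences fall outside the authors' deposited list, and the genes in this section were picked out after their values were seen. The proline-rich wall protein gene PRP4 (AT4G38770) had 215 FPKM in potent and 0.0165 in the control. In the other direction, the wall protein gene AGP30 (AT2G33790) had 0.104 FPKM in potent and 535 in the control, and the expansin gene EXPA11 (AT1G20190) had 0.745 FPKM in potent and 153 in the control. Of the 407 members higher by at least 3 on the log2 scale 143 are listed, and of the 286 lower by as much 118 are listed.

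Neighbouring copies of 1 family had opposite directions. The defensin-like gene AT4G22212 had 221 FPKM in potent and 87.1 in the control, whereas its near neighbours AT4G22214 and AT4G22217 had 0.0892 and 12.9 FPKM in potent and 14.6 and 128 in the control. Within 1 enzyme complex the levels also differed: CESA4 (AT5G44030), which forms the secondary wall cellulose synthase together with IRX1 and IRX3, had 1020.3 FPKM in potent and 852 in the control, far above its partners in both genotypes.

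Loci annotated to small RNAs differed in both directions. Of 52 microRNA loci, 23 were higher and 21 lower past 1 (44.2% and 40.4%). Of 163 small nucleolar RNA loci, 57 were higher and 46 lower (35.0% and 28.2%), against 20.9% and 18.1% over all members. Of these 2 kinds, the authors' deposited table lists only MIR166b (AT3G61897), which was at 0 in potent and had 197 FPKM in the control. Its family targets the class III homeobox genes that pattern the vascular tissue. These are values at annotated loci from full-length cDNA, not measurements of mature small RNAs, and the depth behind them is unknown.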
